A study of Mus musculus with 2 samples.

Results

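The type I interferon genes of the mouse lie together on chromosome 4, and the data described here are the H3K9me3 peaks called across that cluster, from 88.5 to 88.95 Mb (GRCm38). The window was chosen from the measured values. Its members were then taken by position: 16 of the 40119 deposited peaks have their centre in this window of 450 kb. Of these, 13 form a run of close peaks between 88770778 and 88806043, which was picked out because its peaks are tall, so its height is a description and not a finding. The 10 listed interferon genes, Ifnb1, Ifna1, Ifna2, Ifna4, Ifna5, Ifna9, Ifna11, Ifna12, Ifna13 and Ifna14, served as landmarks.

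H3K9me3, trimethylation of lysine 9 on histone H3, was profiled by chromatin immunoprecipitation and sequencing (ChIP-seq) in intestinal stem cells sorted as GFP-high and CD24-low from 8-week-old C57BL/6 mice. The mice carried the alleles Lgr5-EGFP-IRES-creERT2 and setdb1fl/fl, so GFP and an inducible Cre are driven by Lgr5, and both Setdb1 alleles are floxed. Setdb1 encodes a methyltransferase that lays down this mark. The labels do not say whether Cre had been induced. The labels give 12 mice as the source of the cells, with 1 ChIP library and 1 control library, the latter named input in its title and IgG under antibody. Both groups come from the same genotype and there is no replicate, so no test between samples was possible, and no p-value of this work is given. Expression was not measured, so the cell type could not be checked against its markers. For orientation, the stem cell gene Lgr5 had 4 peaks within 5 kb, the tallest of 21 tags, and Ascl2 had 1 of 66 tags beside 7 control tags. Olfm4 and the leukocyte gene Ptprc had none, and 55.6% of protein-coding genes had a peak within 5 kb.

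Type I interferons are secreted cytokines that cells make after sensing foreign or misplaced nucleic acid. Interferon beta (Ifnb1), the many interferon alphas, interferon epsilon (Ifne) and interferon zeta (Ifnz, also called limitin) act on the same receptor, built from Ifnar1 and Ifnar2, and switch on antiviral genes through Stat2 and Irf9. H3K9me3 is a mark of silenced chromatin and is known for covering repeated sequence and families of duplicated genes.

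The tall peaks did not lie on the interferon beta or alpha genes. They lay on the interferon zeta array, a tandem series of 15 protein-coding genes between 88754868 and 88808380, in the middle of the cluster. Ifnz is the named gene of this array, and the others carry Gm symbols. RefSeq lists Ifnz as a synonym of Gm13271 and limitin as a synonym of Gm13285. The remaining genes are counted in the array by their position, all on the plus strand.

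Upstream sequence shows which array genes share the same bases before their annotated starts. All sequences are from RefSeq on GRCm38.p6, read 5′ to 3′ on the gene's strand, and cover the 250 bases before the annotated start. Ifnb1 and Ifna4 stand for genes with no peak nearby. The capitals mark GGAAATTCC in Ifnb1, letters of its known NF-kB site, and GAAANNGAA in Ifna4, core letters of elements that interferon regulatory factors bind. The positions are chr4:88522795-88523044 (minus strand) and chr4:88841566-88841815 (plus strand).
Ifnb1: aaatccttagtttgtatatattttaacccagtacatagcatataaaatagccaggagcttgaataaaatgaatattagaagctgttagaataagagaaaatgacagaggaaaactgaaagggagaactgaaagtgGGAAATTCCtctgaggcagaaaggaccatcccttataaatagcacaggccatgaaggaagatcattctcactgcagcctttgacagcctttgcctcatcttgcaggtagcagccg
Ifna4: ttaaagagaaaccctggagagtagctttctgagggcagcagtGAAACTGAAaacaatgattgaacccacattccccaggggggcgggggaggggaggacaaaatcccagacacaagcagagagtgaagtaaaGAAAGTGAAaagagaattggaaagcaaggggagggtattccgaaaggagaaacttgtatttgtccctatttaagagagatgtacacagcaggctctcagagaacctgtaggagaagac

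From the array, Ifnz (chr4:88781881-88782130) and Gm13278 (chr4:88790645-88790894) stand for 1 form of upstream sequence, and Gm13290 (chr4:88773584-88773833) and Gm13289 (chr4:88776512-88776761) for the other, all on the plus strand. Capitals mark the bases that differ within each pair, and each of these 4 genes had a peak. Joining genes whose windows share an unbroken stretch of at least 100 bases puts 6 array genes with Ifnz and 7 with Gm13290, each count including the gene named, and leaves Gm13271 and Gm13286 alone. The windows of Gm13290 and Ifnz shared no stretch over 9 bases. They differed at 214 of 300 bases, compared without gaps. That count cannot set the forms apart, since Gm13290 and Gm13272 of the same form differed at 221 and shared a stretch of 140. Windows follow the annotated starts, so a window without a match does not show that its gene is no copy. Whether the forms match outside these windows was not tested.
Ifnz: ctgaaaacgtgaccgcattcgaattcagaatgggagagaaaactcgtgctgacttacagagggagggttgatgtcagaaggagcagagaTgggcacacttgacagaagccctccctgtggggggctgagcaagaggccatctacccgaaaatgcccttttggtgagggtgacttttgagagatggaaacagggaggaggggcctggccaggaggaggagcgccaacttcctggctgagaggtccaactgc
Gm13278: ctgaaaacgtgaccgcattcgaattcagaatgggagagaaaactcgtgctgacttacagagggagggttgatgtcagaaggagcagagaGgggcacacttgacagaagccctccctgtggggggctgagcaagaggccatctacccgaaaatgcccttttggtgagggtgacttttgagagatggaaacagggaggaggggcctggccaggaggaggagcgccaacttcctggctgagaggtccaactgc
Gm13290: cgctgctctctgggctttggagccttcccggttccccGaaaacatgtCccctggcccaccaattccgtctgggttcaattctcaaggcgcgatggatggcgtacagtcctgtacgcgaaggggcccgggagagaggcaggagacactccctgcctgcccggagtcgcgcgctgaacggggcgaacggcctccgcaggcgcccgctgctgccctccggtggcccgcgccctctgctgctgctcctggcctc
Gm13289: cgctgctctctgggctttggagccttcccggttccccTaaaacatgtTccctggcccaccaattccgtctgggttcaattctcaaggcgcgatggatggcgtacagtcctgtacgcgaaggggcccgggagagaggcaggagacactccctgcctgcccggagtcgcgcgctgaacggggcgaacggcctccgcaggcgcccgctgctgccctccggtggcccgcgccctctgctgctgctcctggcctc

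Over the 300 bases from 250 before to 50 after the start, Ifnz, Gm13276 and Gm13277 were identical. Gm13290 and Gm13279 were identical as well, and so were Gm13272, Gm13285 and Gm13287. Gm13278 and Gm13288 each differed from Ifnz at 1 base, and Gm13289 differed from Gm13290 at 2. Gm13275 is annotated from another point of the repeat, and shared a stretch of 210 bases with Gm13288. Short sequencing reads from such copies cannot be placed with certainty, and how multiple hits were treated is not given in the sources used here. So the split of tags between copies is uncertain throughout.

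The deposited list gives for each peak a normalized tag count, which is the ChIP tags scaled to a fixed library size. From its steps the tags themselves were recovered, in units of 0.5 tag. Control tags are those of the control library in the same interval, with 0.5 as the lowest value in the list, and the fold over control and p-values are the peak caller's. Peaks with at least 50.8 normalized tags, the highest 10% of the list, are called strong. They make up 10.1% of all peaks. Intervals are 95% intervals by the exact Poisson formula, applied to values in steps of 0.5 tag. They are approximate, since such values are not whole counts and what 0.5 tag stands for was not settled. They cover counting error only, since sequencing reads without molecular identifiers are not independent molecules.

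The run spans 35.3 kb, from 88770778 to 88806043, and its 13 peaks covered 58.0% of that length. Together they held 710.5 ChIP tags (659 to 765) beside 54.5 control tags (41.0 to 71.0). That is 90.7% of the tags in the window's peaks, on 7.84% of its length. Of the 13 peaks, 8 were strong, and none of the 3 peaks elsewhere in the window was. Just inside the strong threshold were peaks of 52.9 and 54.5 normalized tags, and just outside it were the peak of 44.5 in the run and the peak of 43.0 outside it.

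**Figure D1:**
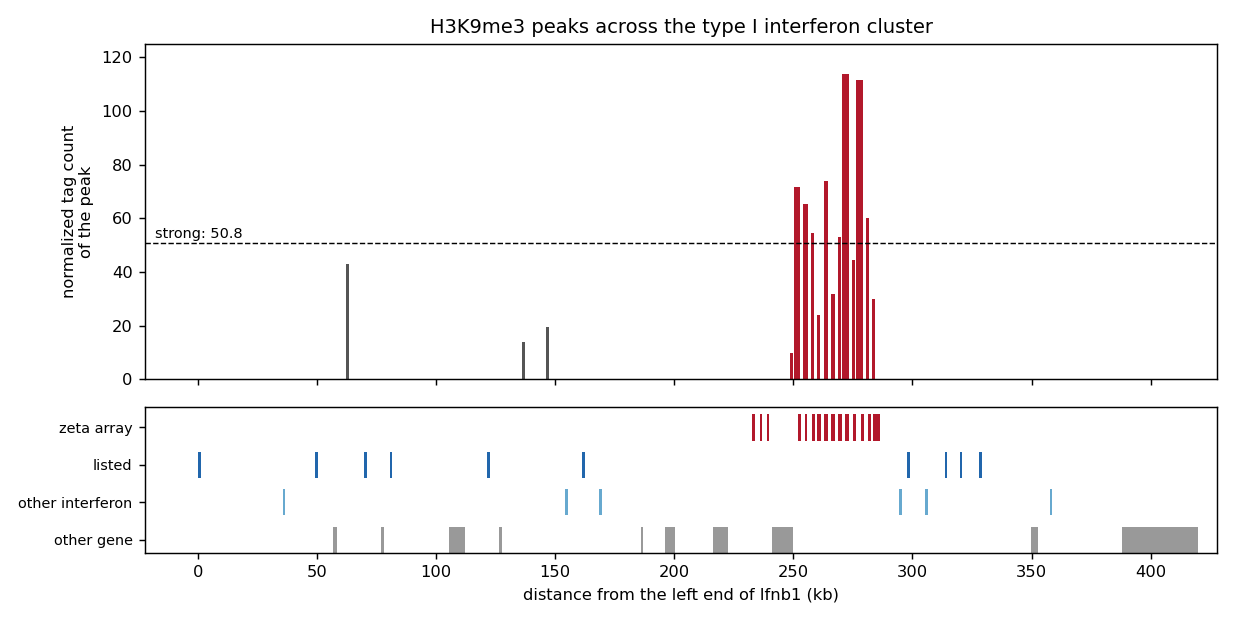
Normalized tag count of each peak (bars, upper panel; red for the run, grey for other peaks) and gene positions (lower panel, by kind of gene) against distance from the left end of Ifnb1 in kb; the narrowest bars are drawn 1.2 kb wide so that they can be seen. The 8 peaks above the dashed line at 50.8 all stand over the zeta array, and the stretches holding the other interferon genes carry 3 lower peaks on the left and none on the right.

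Each array gene in the run had a peak of its own. A peak touched 12 of the 15 array genes, and the 12 peaks were different ones. The remaining peak of the run, at 88770778 to 88771278, was its lowest, with 9.5 tags (4.45 to 17.7), and lay in the pseudogene Gm13284. Among protein-coding genes of the whole table, 46.6% were touched by a peak, and among those of at most 1000 bp it was 5.05%. At 8 array genes the peak was strong, beside 5.38% of all protein-coding genes and 0.512% of the short ones touched by a strong peak. That last share is 8 genes in all, and 5 of them are in this array. These shares are background alone, since the run was chosen for its peaks. The shares for short genes do not apply to Ifnz, Gm13275, Gm13276, Gm13277, Gm13278 and Gm13288, which are longer than 1000 bp. Every one of the 12 peaks began before the annotated start of its gene and ended after it. They covered 18 to 100% of the gene's span, with a median of 94.0%. The lowest share was at Gm13288, whose annotated span of 2850 bp is the longest of the array. The 300 bases around the start lay wholly within a peak at 9 genes and partly at Ifnz, Gm13276 and Gm13278. Of all promoter windows, 13.1% were touched by a peak.

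The spacing of peaks and that of the genes had close medians, which follows from each start being crossed by a peak of its own. Starts of neighbouring array genes with a peak were 2277 to 3495 bp apart, with a median of 2923 bp. Centres of neighbouring peaks in the run, with the peak in Gm13284 counted, were 2459 to 3546 bp apart, with a median of 2880 bp. Single intervals did not match. The widest was between the peaks on Gm13290 and Gm13289, whose starts are 2928 bp apart, and the narrowest was beside the peak in Gm13284. Gaps between the peaks measured 585 to 1715 bp.

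**Figure D2:**
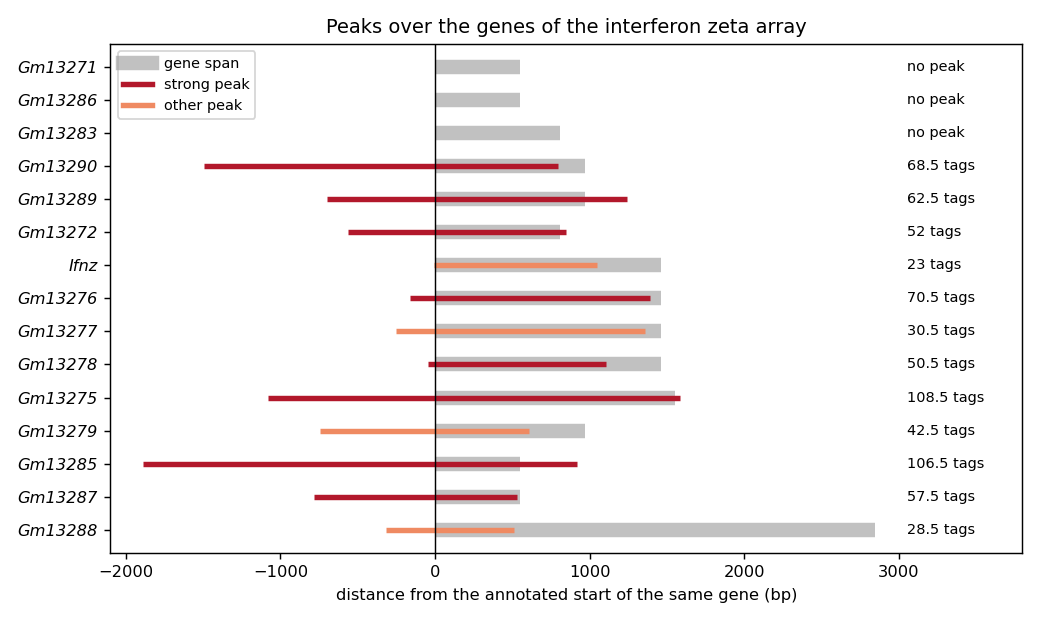
Extent of the peak over each array gene (coloured lines, dark red where strong) and the gene span (grey) against distance in bp from that gene's annotated start, in genomic order from top to bottom, with the ChIP tags of the peak at the right. All 12 peaks cross the start, and the first 3 genes have none.

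The tallest peaks of the run lay on Gm13275 and Gm13285. The peak on Gm13275 (chr4:88792659-88795325) held 108.5 ChIP tags (89.0 to 131) and 14.5 control tags (8.02 to 24.1), with a fold of 5.12. The peak on Gm13285 (chr4:88798430-88801240) held 106.5 tags (87.2 to 129) and 7.5 control tags (3.13 to 15.1), with a fold of 9.72. These were also the widest peaks, at 2666 and 2810 bp. Per kb their ChIP tags were 40.7 and 37.9, within the range of the other strong peaks of the run.

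On the first form of upstream sequence, copies with the same letters had different tag counts. Gm13276 (chr4:88784892-88786444) had 70.5 tags (55.0 to 89.0) beside 3 control tags. Ifnz itself (chr4:88782123-88783177) had 23 tags (14.6 to 34.5) beside 1 control tag, and Gm13277 (chr4:88787726-88789334) had 30.5 tags (20.7 to 43.4) beside 0.5. Per kb these were 45.4, 21.8 and 19 tags. The interval of tags of Gm13276 lay above those of both others, while the intervals of Ifnz and Gm13277 overlapped. Since reads from such copies cannot be placed with certainty, this need not be a difference between the genes. The fold of 41.74 at Gm13277, the highest of the window, rests on the lowest control value. Gm13278 (chr4:88790852-88792003) had 50.5 tags (37.5 to 66.5), and Gm13288 (chr4:88805216-88806043) had 28.5 (19.01 to 41.1) with 4.5 control tags and the lowest fold of the window, 4.33.

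On the second form, Gm13290 (chr4:88772341-88774632) had 68.5 tags (53.2 to 86.8) and Gm13279 (chr4:88796492-88797845), identical to it around the start, had 42.5 (30.7 to 57.3). Gm13289 (chr4:88776063-88778001) had 62.5 tags (48.0 to 80.04). Gm13272 (chr4:88779286-88780696) and Gm13287 (chr4:88802473-88803781) had 52 (38.8 to 68.2) and 57.5 (43.6 to 74.4). The intervals of these 5 genes overlapped. That of Gm13285, at 106.5 tags, lay above all of theirs, but narrowly, from 87.2 against an upper bound of 86.8 at Gm13290. Its peak is also wider than all of theirs, and per kb its 37.9 tags lay within their 29.9 to 44.0. Here too the split of tags between copies is uncertain. The control tags of the 5 genes were 4, 2.5, 4, 4 and 6, in the order named.

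The 3 array genes without a peak form the left end of the array. Gm13271, Gm13286 and Gm13283 lay 15362, 12386 and 9194 bp from the nearest peak, and an interval of 13060 bp separates the start of Gm13283 from that of Gm13290. Gm13283 shared a stretch of 148 bases around its start with Gm13272, Gm13285 and Gm13287, differing from each at 3 of 300 bases. Gm13271 stood apart by CpG, with none in its 250 upstream bases, against 16 in Gm13286 and 22 in Gm13283. Its share of G and C, 50.8%, lay within the 50.4 to 68.8% of the 12 genes with a peak. In the 12 genes with a peak the number of CpG ranged from 6 to 25. At this depth a peak in the list held at least 9 tags, so a lower level of the mark at these genes was not detectable.

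The 8 strong peaks of the run had medians of 39.3 ChIP tags and 2.42 control tags per kb, and those of all 4065 strong peaks were 37.3 and 2.12. Of the 54.5 control tags in the run, 14.5 lay in the peak on Gm13275. Control tags over the whole run amounted to 2.66 per covered kb (2.00 to 3.47), against 1.99 over all peaks and 3.64 over all strong peaks. ChIP tags came to 34.7 per covered kb (32.2 to 37.4), against 29.7 and 49.0. Sums over all strong peaks include a few very tall ones, up to 7227 ChIP tags per kb. Summed over the run, ChIP tags scaled to the control library were 8.92 times the control, against 10.2 for all peaks and 9.21 for all strong ones. The 3 other peaks of the window had 1.27 control tags per kb (0.306 to 3.44). The caller's clonal fold was 0.94 to 0.99 in the run, and the list's median was 0.97. The part of repeated sequence and of control signal in the height of the run was not tested.

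**Figure D3:**
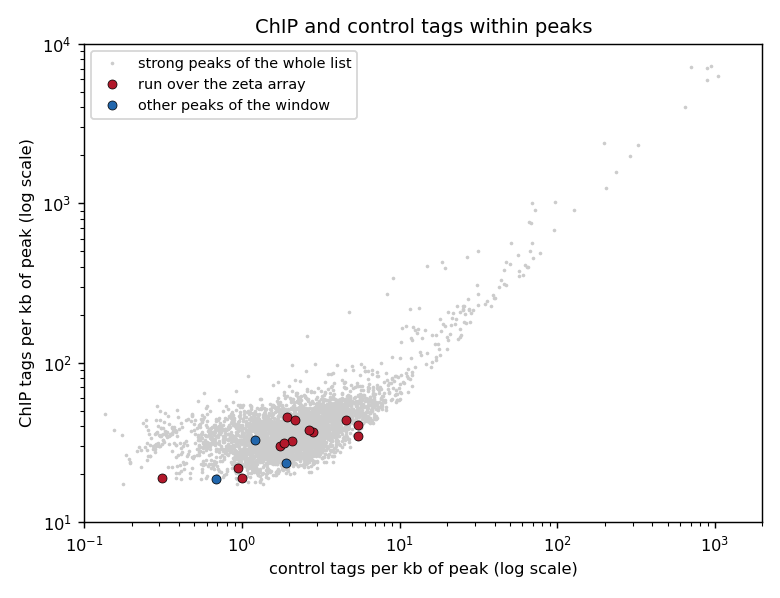
ChIP tags per kb of peak against control tags per kb, both on log scales, for the 13 peaks of the run (red), the 3 other peaks of the window (blue) and the 4065 strong peaks of the whole list (grey). The run lies between 0.311 and 5.44 control tags per kb and between 19 and 45.4 ChIP tags per kb, and 8 of its 13 peaks are among the strong ones.

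No peak touched an interferon beta, alpha or epsilon gene. None of the 10 listed genes had a peak within 5 kb. Among protein-coding genes 55.6% had a peak within 5 kb, and among those of at most 1000 bp 12.9% did. The listed genes are 570 to 819 bp long, so the second share is the nearer background, and 0 of 10 is close to it. The same held for all 16 such genes of the window, which add Ifna6, Ifna7, Ifna15, Ifna16, Ifnab and Ifne, with 0 of 16. Within 10 kb, 2 of the 16 had a peak, Ifna9 and Ifna16, beside 62.8% of protein-coding genes and 24.2% of the short ones.

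Distances from the listed genes to the nearest peak ran from 6173 bp at Ifna9 to 61603 bp at Ifnb1, with a median of 15519 bp. Ifnb1, at chr4:88522025-88522794, is the earliest interferon to be switched on after infection in many cells and opens the cluster on the left. The nearest peak to it, and to Ifna14, Ifna9 and Ifna12, was the tallest peak outside the run (chr4:88584397-88585640), with 41 tags (29.4 to 55.6), 1.5 control tags and a fold of 18.7. That peak lay 3824 bp from the pseudogene Ifna-ps1. Ifna13 lay 13671 bp from a peak of 13.5 tags (7.29 to 22.9), and Ifna2 lay 14098 bp from a peak of 18.5 tags (11.1 to 29.1).

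The interferon alpha genes on the right of the array had the edge of the run as their nearest peak. Ifna7 lay 10182 bp from it, Ifna11 13876 bp, Ifna6 21233 bp, Ifna5 29482 bp, Ifna4 35773 bp and Ifna1 44044 bp. Ifne, which is known for constant expression in the lining of the reproductive tract, lay 73495 bp away. After the run no peak was called for 331.4 kb, up to a peak of 20.5 tags (at 89137402) in Mtap, a gene of methionine salvage. That stretch also holds Mir31, a microRNA gene, at 104514 bp from the run. Mtap had 2 peaks within 5 kb, and 1 was strong, with 79.6 normalized tags. Before the run no peak was called for 101.7 kb, a stretch with Ifna16, Ifna2, Ifnab and Klhl9, a ubiquitin ligase adaptor. The array genes Gm13271, Gm13286 and Gm13283 lie in it as well. Hacd4, the nearest protein-coding gene on the left of the window, had no peak within 5 kb. The last peak before the window (chr4:88375894-88377660) was strong, with 91.5 tags and 3 control tags.

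**Figure D4:**
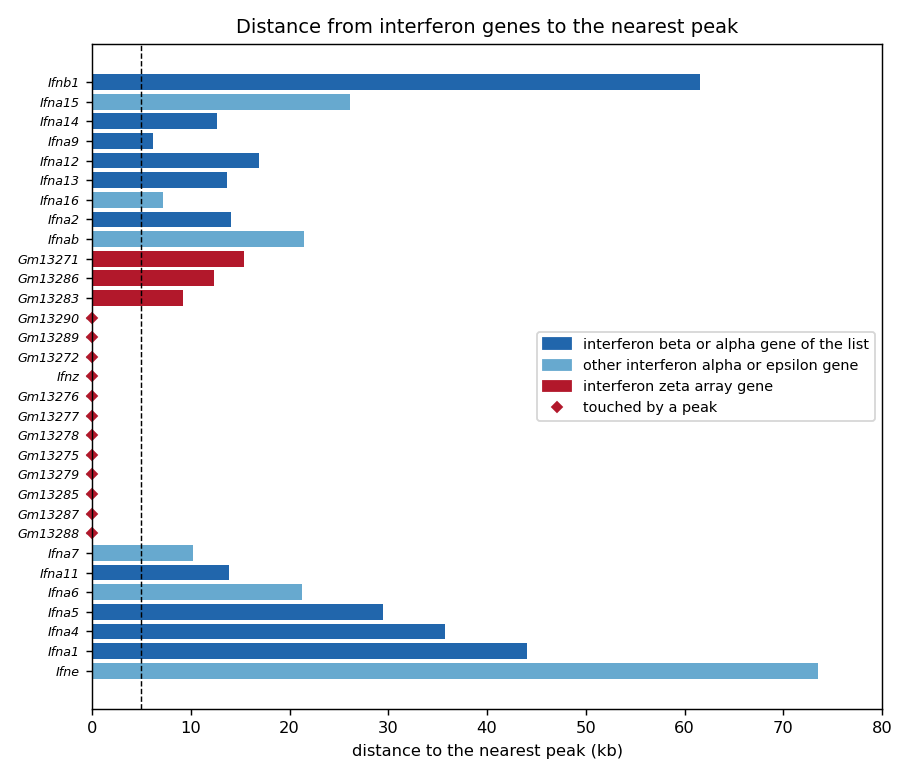
Distance in kb from each interferon gene of the window to the nearest peak, in genomic order from Ifnb1 at the top to Ifne at the bottom, with a dashed line at 5 kb. The 12 array genes touched by a peak are drawn as diamonds at 0, and every other gene lies beyond the line.

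Upstream of the interferon alpha, beta and epsilon genes the sequence was poor in CpG, with 0 to 4 in 250 bases and a median of 1 over 15 genes (Ifna7 had no entry). G and C made up 30 to 46.8% of the bases. In the 12 array genes with a peak the number of CpG was 6 to 8 in the form of Ifnz and 22 to 25 in that of Gm13290. The median of 15 falls between these forms, at no gene. G and C made up 50.4 to 68.8%. The 12 are not separate sequences, since 8 array genes have a promoter window identical to another in the array. Over all 32851 promoter windows the medians were 6 CpG and 52.4%. GAAANNGAA, searched on both strands, was found upstream of 11 of the 15 interferon genes and of 7.13% of all promoter windows. It was found upstream of no array gene. GGAAATTCC, also searched on both strands, was found upstream of Ifnb1 alone among the 15 interferon and 15 array genes and of 0.286% of all windows. Matches of both motifs can overlap. These are matches of letters within 250 bases, and nothing about binding was measured.

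Among stretches of the genome the window stood out more by strong peaks than by peaks. Of 5460 windows of 450 kb on the autosomes, 7.18% held more than 16 peaks, and 11 windows (0.201%) held more than 8 strong ones. In the whole list there were 72 runs of at least 10 peaks with no gap over 10 kb. The interferon run was short among them, with 68 of the others longer than its 35.3 kb. Strong peaks made up 61.5% of it, against a median of 8.33% in the others, and 8 runs had a higher share. Its control tags per covered kb, 2.66, were high against a median of 1.46, with 11 runs above. Its summed fold over control, 8.92, was low against a median of 10.4, with 56 runs above. Since the window was chosen from the measured values and the run for tall peaks, these ranks describe them and support nothing.

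By peaks per Mb, the span from Ifna15 to Ifna1 (54.6) was most like 3 other gene-family clusters, all on chromosome 7. These were 8 Zfp genes at 127233061 to 127615785 (52.3 per Mb, 4 strong peaks), 12 Vmn1r pheromone receptor genes at 22328794 to 22790782 (49.8, 3 strong) and 11 Zfp genes at 24081877 to 24515682 (46.1, 2 strong). Peaks touched 7 of 8 and 5 of 11 zinc finger genes in these clusters, none of the 12 Vmn1r genes and none of the 13 Ifna genes counted by symbol. Beside these stand 46.6% of all protein-coding genes and 5.05% of those of at most 1000 bp, so for genes as short as the Ifna genes none of 13 is near the background. Of 145 such clusters, 76 had no gene touched, and 10 had more peaks per Mb than the interferon span.

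Near the listed genes of the interferon pathway, Stat2 had the only strong peak outside the zeta array. Besides Ifnz, Ifnk had 1 peak within 5 kb (chr4:35155687-35157518), with 38 tags (26.9 to 52.2) and 0.5 control tags, while Ifne, Ifng, Ifnl2 and Ifnl3 had none. Of 11 receptors and signal transducers 7 had a peak within 5 kb, beside the background of 55.6%, and 1 had a strong one (background 6.61%), Stat2 (chr10:128283189-128285430) with 53.5 tags (40.1 to 69.9) and 4.5 control tags. The receptor genes Ifnar1 and Ifnar2 had 3 peaks and 1 peak, the tallest with 19 tags (11.4 to 29.7) and 15 tags (8.40 to 24.7). Of 17 genes that sense nucleic acid or induce interferon 12 had a peak and none a strong one. Irf7, the factor that drives interferon alpha genes, had 4 peaks, and Irf3, which drives Ifnb1, had 3, the tallest with 18.5 tags (11.1 to 29.1) and 29 tags (19.4 to 41.6). Of the sensors, Ddx58 had 1 peak and Tlr9 had 2, the tallest with 21.5 tags (13.4 to 32.7) and 30.5 tags (20.7 to 43.4). Cgas, Ifih1, Tlr3 and Tlr7 had none. The adaptors Mavs, Ticam1 and Myd88 had 1 peak each, and the adaptor Sting1 had none.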

How the data were processed

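One ChIP library and 1 control library of cells sorted from 12 mice were used, through the peak list of the ChIP library. Per the submitters' processing notes, the tools were Bowtie2 (2.2.8) and HOMER (4.10.1), and both GRCm38 and mm10 are named as builds. The columns are those of findPeaks in HOMER, per the file headers. The options it was run with were not given in the sources used here. Of these columns, the deposited normalized tag count and control tags are a signal per peak. The deposited score is the caller's own value. The deposited fold and clonal fold are ratios, the first of scaled ChIP tags to control tags. The lowest fold in the list is 4. The deposited p-value comes from the caller, with a largest value of 8.32e-05, and was not used. Widths are in bp.

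Below 30, normalized tag counts fell on multiples of 0.524 in 100% of peaks (within 0.1 of a multiple), taken as 0.5 tag each, which gave the tags (median 16.5 per peak). The control library had 0.684 times the tags of the ChIP library. Gene spans came from a RefSeq table of GRCm38.p6 with 49997 genes, of which 348 with scaffold coordinates and 54 in the mitochondrial genome or with no chromosome given were left out. The 49595 used lie on the numbered chromosomes, X and Y, and 21774 of them are protein-coding. Promoter windows matched 35 of the 42 genes of the window. A gene was touched when a peak overlapped its span by 1 bp. Strong peaks, the array and its rule of position, the length limit of 1000 bp, the motifs and the upstream pairs were chosen with values in view. The members and gene lists were chosen with earlier results of these data known. In the list of receptors and signal transducers, 1 gene is not reported here and is left out of the counts. Named genes were the members, genes of the window, its nearest outer neighbours, the lists, and the 3 gene-family clusters (shared symbol stem, at least 8 members within 500 kb) nearest in peaks per Mb. Other settings tried were peaks at or above the median score, folds of 8 or more, merging within 5 kb, other overlap rules and gene margins, and shifted windows. The counting of genes, the recovery of tags and the intervals were tested on simulated data. Python 3.11.15 was used.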

Additional observations from a re-analysis of the deposited data

How the results depend on the processing

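The library is single, so no result has replicate error, and depth limits what could be called, since the lowest peak in the list holds 9 tags. No paired analysis was possible because each group held 1 library. With peaks within 5 kb merged, the 16 peaks of the window became 4 and the 13 of the run became 1, which follows from the gaps of at most 1715 bp within the run. With 10 kb on either side of a gene, 1 of the 10 listed genes had a peak, Ifna9, against 0 within 5 kb. The share of windows with more strong peaks was 0.201%, and it was 0.110% with windows shifted along the chromosome as well as among peaks of at least 8-fold. Those shares rest on 11, 6 and 6 windows. Peaks scoring at or above the list's median numbered 12 in the window and 10 in the run, and peaks of at least 8-fold numbered 13 and 10. Of the 12 array genes touched by a peak, 10 were touched by one at or above the median score and 9 by one of at least 8-fold, both settings chosen after the data were seen. Those lost were Gm13290 and Gm13277 by score, and Gm13275, Gm13287 and Gm13288 by fold. The median distance from strong peaks to the nearest listed gene was 30695.5 bp edge to edge and 31371.2 bp from the peak's centre.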
